A study of Mus musculus with 9 samples.

Results

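Notch ligands, receptors and targets were read as 10 genes: the receptors Notch1, Notch2 and Notch3, the ligands Dll1, Jag1 and Jag2, and the basic helix-loop-helix genes Hes1, Hes6, Hey1 and Heyl. The members were all probe sets whose platform annotation names only 1 of these genes. They made up 19 of the 45037 probe sets fitted, and 10 of the 18193 genes with a probe set of their own. RNA of the terminal colon of mouse embryos had been hybridised to 9 Affymetrix MOE430 version 2 arrays, 3 for each of 3 groups. Wild type embryos are labelled wt, and Ednrb null embryos Ednrb -/-, homozygous for a lacZ allele of the endothelin receptor B gene. The third group, Ednrb NCC null, is labelled EdnrB-FLEX(NCC-/-), with neither abbreviation spelled out and no Cre driver named. Sample labels give the age as E14, and the series as a whole as 14.5 days. Whether each array holds 1 embryo or a pool is not stated, so the p-values speak only of the spread between these samples. Both mutants were compared with the same 3 wild type arrays.

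Notch receptors are transmembrane proteins that bind Delta and Jagged ligands on a neighbouring cell. Ligand binding leads to cleavage of the receptor by gamma-secretase, and the released intracellular domain joins the DNA-binding protein RBPJ to switch on target genes, classically of the Hes and Hey families. In the developing gut, Notch signalling is known to keep enteric neural crest cells as progenitors, to hold epithelial cells back from secretory fates and to act in vessel walls.

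Notch1 and Dll1 were the 2 members called lower in both mutants, and their promoters are shown here because both genes fell. Each window runs from 250 bases before to 50 after the start of the gene, from RefSeq (GRCm38.p6). Notch1 lies at chr2:26457902-26503822 and Dll1 at chr17:15367354-15376932, and both windows are from the minus strand. Capitals mark CACNAG on either strand (read as CTNGTG on the printed strand), the N-box that Hes proteins are known to bind.
Notch1, chr2:26503773-26504072: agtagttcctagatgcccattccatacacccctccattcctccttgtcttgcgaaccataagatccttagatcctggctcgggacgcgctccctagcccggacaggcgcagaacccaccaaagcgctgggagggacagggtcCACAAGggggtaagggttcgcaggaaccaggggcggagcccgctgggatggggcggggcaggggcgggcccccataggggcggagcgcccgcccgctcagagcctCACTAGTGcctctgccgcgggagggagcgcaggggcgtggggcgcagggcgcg
Dll1, chr17:15376883-15377182: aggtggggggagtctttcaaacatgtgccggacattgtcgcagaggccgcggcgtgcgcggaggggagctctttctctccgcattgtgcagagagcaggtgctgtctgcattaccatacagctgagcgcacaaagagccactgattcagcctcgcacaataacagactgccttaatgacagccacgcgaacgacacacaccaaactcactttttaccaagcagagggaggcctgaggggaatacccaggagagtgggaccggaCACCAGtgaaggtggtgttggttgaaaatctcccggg
The Notch1 window held 3 matches, 2 of which overlap at its start site, and the Dll1 window held 1. Another Dll1 entry, chr17:15375774-15376073, lies inside the gene. It held 0 matches and is not shown. Of the 10 genes, 7 had at least 1 promoter entry, 9 entries in all, and CACNAG stood in 5 of the 9, against 42.5% of the 32851 mouse promoter windows of this length. The RBPJ core TGGGAA stood in 0 of the 9 entries and in 25.6% of all windows. The E-box CACGTG stood in 0 of the 9 entries and in 7.15% of all windows. Each motif was searched on both strands. A match is a description of these letters and not a site.

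Ednrb itself served as the check of the labels. Its brightest probe set averaged 9.13 log2 intensity in Ednrb null, against 11.02 in wild type, and the Ednrb NCC null arrays averaged 11.17. Ednrb signal in Ednrb null was 27.0% of that in wild type, and in Ednrb NCC null it did not differ beyond the spread (difference 0.15 log2, limma adjusted p = 0.696). The check thus bears on the Ednrb null label and cannot speak for that of Ednrb NCC null. This dissected tissue holds many cell types. Median intensities of the 9 arrays ran from 111.66 to 115.74. Arrays of the same group correlated at 0.9932 to 0.9967 over all probe sets and arrays of different groups at 0.9881 to 0.9928. Every pair within a group correlated more than any pair across groups. The 3' to 5' log2 ratio of the Actb control probe sets, a sign of RNA length and labelling, averaged 0.87 ± 0.06 in Ednrb null (SD, n = 3), 1.18 ± 0.13 in wild type and 1.21 ± 0.18 in Ednrb NCC null. It ran from 0.80 to 0.90 in Ednrb null, 1.08 to 1.32 in wild type and 1.03 to 1.40 in Ednrb NCC null. All Ednrb null arrays thus had lower ratios than all others, so a fit with this covariate can hardly tell ratio from genotype. A call lost in that fit does not tell which of them the difference follows.

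Of the 19 Notch probe sets, 3 fell and 1 rose in Ednrb null against wild type (limma, adjusted p under 0.05 over all probe sets), and 15 did not pass. Those that fell were for Notch1, Dll1 and Heyl, and the 1 that rose was a dimmer probe set of Jag1. Over all probe sets, 5.03% were called in this comparison, 2.52% lower and 2.51% higher. Against the same wild type arrays, 2 of the 19 fell in Ednrb NCC null, those of Notch1 and Dll1, and 0 rose, where 3.58% of all probe sets were called, 1.51% lower and 2.06% higher. At an unadjusted p under 0.05 the numbers were 8 and 6 of 19, against 17.3% and 17% of all probe sets. Between the 2 mutants 0 of 19 were called by limma, where 4.41% of all probe sets were called, 2.57% lower in Ednrb null and 1.84% higher. An unadjusted p under 0.05 was reached by 3 of the 19 and by 17.3% of all probe sets.

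Read by the brightest probe set, 10 of 10 genes were below wild type in Ednrb null, with a median difference of -0.24 log2 where the median over all genes was 0.04. Of the 10, 9 were lower in Ednrb NCC null, Hes6 being the exception, with a median of -0.23 against 0.02 over all genes. Between the mutants 5 of 10 were lower in Ednrb null, with a median of 0.01. Centring the arrays on their medians or quantile normalization left the counts against wild type at 10 and 9 of 10. In Ednrb null the count was 9 with the mean of a gene's probe sets, 7 with the Actb 3' to 5' ratio as a covariate, and 9 without the Ednrb null array 37 or without the wild type array 1D. For 7 of the 19 probe sets, no Ednrb null array fell within the wild type range or the reverse, as for 20.7% of all probe sets. The numbers were 5 of 19 against 19.3% in Ednrb NCC null, and 2 of 19 against 21.3% between the mutants. By the brightest probe set, 5, 3 and 1 of the 10 genes did not overlap, against 22.6%, 21.9% and 24.2% of all genes.

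**Figure D1:**
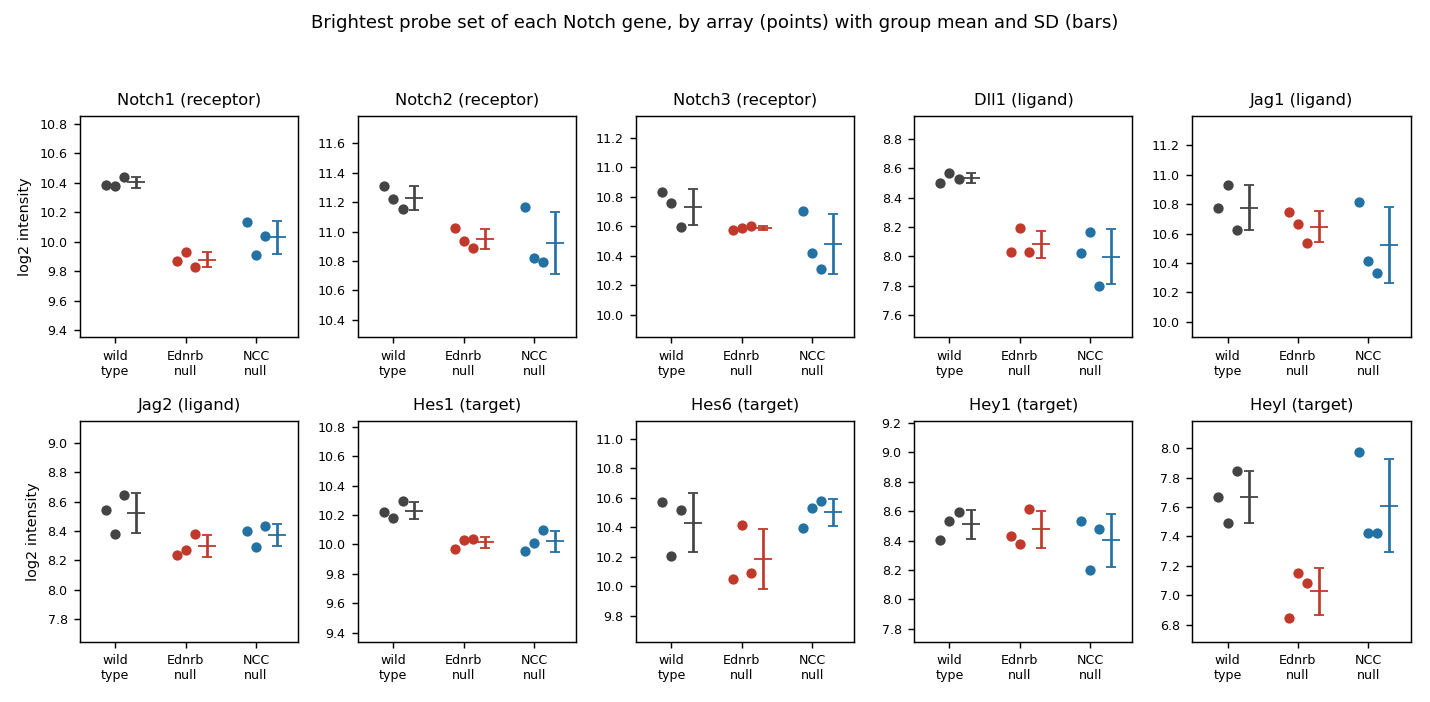
Log2 intensity of the brightest probe set of each of the 10 genes; points are arrays, bars the group mean and SD (n = 3), and NCC null stands for Ednrb NCC null. All panels span about the same number of log2 units. The arrays of both mutants lie below the 3 wild type arrays for Notch1, Dll1 and Hes1, and those of Ednrb null alone for Notch2 and Heyl, while Jag1 and Hey1 overlap across the groups.

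Among the receptors, Notch1 fell in both mutants. Notch1, a receptor found in many progenitor tissues, measured 10.39, 10.38 and 10.44 log2 intensity on the wild type arrays 1B, 1C and 1D. It measured 9.87, 9.93 and 9.83 on the Ednrb null arrays 29, 37 and 41. The Ednrb NCC null arrays 2, 5 and 6 gave 10.14, 9.91 and 10.04. All 6 mutant arrays lay below all 3 wild type arrays. Notch1 fell by 0.53 log2 in Ednrb null (SE 0.08, 95% interval -0.71 to -0.34, 1.44-fold, adjusted p = 0.00416). It fell by 0.37 in Ednrb NCC null (SE 0.08, 1.30-fold, adjusted p = 0.0366). The mutants differed by -0.15 (interval -0.34 to 0.03, adjusted p = 0.409), which did not pass.

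The fall of Notch1 in Ednrb null kept its call without any single array, with adjusted p up to 0.0231. With the Actb 3' to 5' ratio as a covariate it was -0.42 (adjusted p = 0.237). The Notch1 call in Ednrb NCC null was lost when only the 2 groups were fitted (adjusted p = 0.0770). That call was also lost without any of the Ednrb null array 29, the Ednrb NCC null arrays 5 and 6, and the 3 wild type arrays (adjusted p 0.0633 to 0.125). The dimmer Notch1 probe set, 1418633_at, ran from 7.87 to 8.03 in wild type, 7.70 to 7.81 in Ednrb null and 7.63 to 7.79 in Ednrb NCC null. Its arrays also did not overlap with wild type in either mutant, with differences of -0.21 (adjusted p = 0.241) and -0.25 (adjusted p = 0.162), which did not pass.

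Notch2 and Notch3 did not pass in any comparison. Notch2, a receptor close to Notch1 in structure, measured 11.31, 11.22 and 11.15 in wild type, 11.03, 10.93 and 10.89 in Ednrb null, and 11.17, 10.82 and 10.79 in Ednrb NCC null. The Ednrb null arrays lay below wild type, with a difference of -0.28 (interval -0.52 to -0.04, adjusted p = 0.208). The Notch2 arrays of Ednrb NCC null overlapped those of wild type (difference -0.30, adjusted p = 0.175), and without the Ednrb NCC null array 2 the difference was -0.42 and passed (adjusted p = 0.0443). Its other probe set, 1451889_at, was dimmer than the median probe set and differed by at most 0.02 in size. Notch3, the receptor of vascular mural cells, measured 10.83, 10.76 and 10.59 in wild type, 10.58, 10.59 and 10.60 in Ednrb null, and 10.71, 10.42 and 10.31 in Ednrb NCC null. The groups overlapped, with differences of -0.14 (adjusted p = 0.579) and -0.25 (adjusted p = 0.277) from wild type. On the second Notch3 probe set, 1421964_at, the Ednrb NCC null arrays lay just below wild type (difference -0.25, adjusted p = 0.395).

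Among the ligands, Dll1 fell in both mutants. Dll1, a Delta ligand of neural and secretory precursors, measured 8.50, 8.57 and 8.53 in wild type. It measured 8.03, 8.19 and 8.03 in Ednrb null, and 8.03, 8.17 and 7.80 in Ednrb NCC null. All 6 mutant arrays lay below the 3 wild type arrays, and the mutants overlapped each other. Dll1 fell by 0.45 in Ednrb null (SE 0.10, interval -0.68 to -0.22, 1.36-fold, adjusted p = 0.0300). It fell by 0.53 in Ednrb NCC null (SE 0.10, interval -0.76 to -0.31, 1.45-fold, adjusted p = 0.0177). Between the mutants Dll1 differed by 0.08 (interval -0.14 to 0.31, adjusted p = 0.759). In bulk tissue, fewer cells of a type and less RNA per cell cannot be told apart.

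The Dll1 call in Ednrb null was lost without any of the Ednrb null arrays 29 and 41 and the 3 wild type arrays (adjusted p 0.0699 to 0.118). With the Actb covariate the Dll1 difference was -0.58 (adjusted p = 0.168). The Dll1 call in Ednrb NCC null was lost without the Ednrb NCC null array 6 or the wild type arrays 1B or 1C (adjusted p 0.0541 to 0.0652).

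The 3 probe sets of Jag1 did not move together. Jag1, a Jagged ligand found in endothelium, mesenchyme and epithelium, measured 10.77, 10.93 and 10.63 in wild type on its brightest probe set, 1434070_at. The same probe set gave 10.74, 10.66 and 10.53 in Ednrb null and 10.82, 10.41 and 10.34 in Ednrb NCC null. All 3 groups overlapped, with differences of -0.13 (adjusted p = 0.693) and -0.26 (adjusted p = 0.376) from wild type. On the dimmer probe set 1421106_at, Jag1 measured 7.39, 7.77 and 7.40 in wild type, 8.48, 8.11 and 8.23 in Ednrb null, and 7.88, 7.77 and 7.43 in Ednrb NCC null. There the Ednrb null arrays lay above all 6 others. The Jag1 signal on 1421106_at rose by 0.76 in Ednrb null (SE 0.15, interval 0.43 to 1.08, 1.69-fold, adjusted p = 0.0138), and differed by 0.17 in Ednrb NCC null (adjusted p = 0.639). Between the mutants the difference was 0.58 (interval 0.25 to 0.91, adjusted p = 0.0536), which did not pass. It passed without the wild type array 1C (adjusted p = 0.0367), without the 40% dimmest probe sets (0.0406), with eBayes with trend and robust (0.0475) and with array weights (0.0150). The rise in Ednrb null was not called without the Ednrb null array 29, the wild type array 1B or the wild type array 1D (adjusted p 0.0513 to 0.0662). With the Actb covariate the Jag1 difference on 1421106_at was 0.76 (adjusted p = 0.259). The dimmest Jag1 probe set, 1421105_at, dimmer than the median probe set, differed by 0.23 in Ednrb null (adjusted p = 0.484). Where in the Jag1 transcript each probe set lies was not analysed here.

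Jag2, the other Jagged ligand, measured 8.54, 8.38 and 8.65 in wild type, 8.24, 8.27 and 8.38 in Ednrb null, and 8.40, 8.29 and 8.43 in Ednrb NCC null. The Jag2 differences were -0.23 (interval -0.43 to -0.02, adjusted p = 0.232) and -0.15 (adjusted p = 0.485), and did not pass. The dimmer Jag2 probe set differed by -0.18 and -0.08.

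Among the targets, Heyl fell in Ednrb null. Heyl, a Hey family repressor known from vascular smooth muscle and muscle precursors, measured 7.67, 7.49 and 7.84 in wild type and 6.84, 7.15 and 7.08 in Ednrb null. It measured 7.98, 7.43 and 7.43 in Ednrb NCC null. The Ednrb null arrays lay below all 6 others, and the Ednrb NCC null arrays spanned those of wild type. Heyl fell by 0.64 in Ednrb null (SE 0.16, interval -0.98 to -0.30, 1.56-fold, adjusted p = 0.0412), and differed by -0.06 in Ednrb NCC null (adjusted p = 0.908). Between the mutants the difference was -0.58 (interval -0.93 to -0.24, adjusted p = 0.0643), which did not pass, so a difference between the mutants in Heyl was not shown at this threshold. That difference passed with array weights (adjusted p = 0.0261), without the 40% dimmest probe sets (0.0490) and with 1 probe set per gene (0.0477).

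The Heyl call in Ednrb null was lost without any of the 3 Ednrb null arrays, the Ednrb NCC null array 5 and the wild type arrays 1B and 1D (adjusted p 0.0529 to 0.160). Averaging the 3 Heyl probe sets gave -0.33 (adjusted p = 0.164), and the Actb covariate gave -0.34 (adjusted p = 0.708). The second Heyl probe set, 1419302_at, differed by -0.35 in Ednrb null (adjusted p = 0.292). On the third, 1419303_at, dimmer than the median probe set, the groups overlapped and Heyl differed by less than 0.02 in size in Ednrb null.

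**Figure D2:**
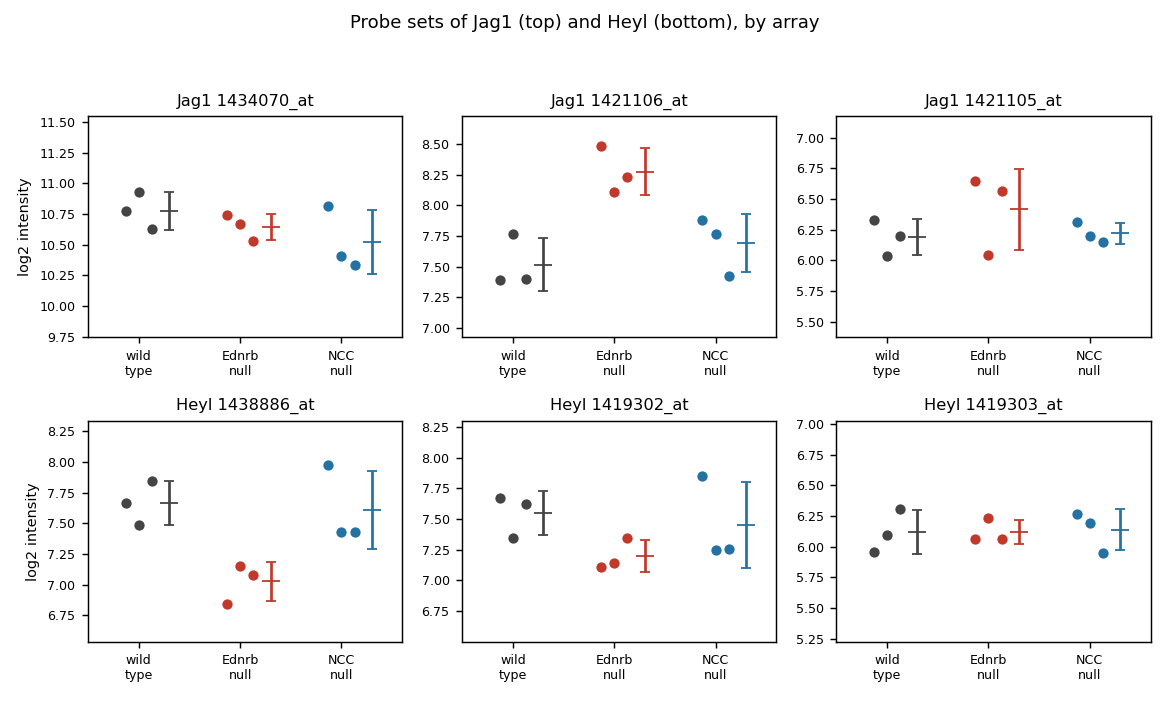
Log2 intensity of the 3 probe sets of Jag1 (top) and of Heyl (bottom), brightest at the left; points are arrays, bars the group mean and SD (n = 3), and the NCC null label stands for Ednrb NCC null. The Ednrb null arrays stand above the others on Jag1 1421106_at and below them on Heyl 1438886_at, and the groups overlap on the dimmest probe set of each gene.

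Hes1, Hes6 and Hey1 did not pass in any comparison. Hes1, the target read out most often for Notch activity, measured 10.22, 10.18 and 10.29 in wild type. It measured 9.97, 10.03 and 10.04 in Ednrb null and 9.96, 10.01 and 10.10 in Ednrb NCC null. All 6 mutant arrays lay below wild type. The Hes1 differences were -0.22 in Ednrb null (SE 0.08, interval -0.39 to -0.04, adjusted p = 0.174) and -0.21 in Ednrb NCC null (adjusted p = 0.201). Hes1 had a within-group SD of 0.058, larger than that of only 3.8% of probe sets, and Heyl one of 0.229, larger than that of 88.6%.

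Hes6, which is known to oppose Hes1 and to go with neuronal and secretory differentiation, measured 10.57, 10.20 and 10.52 in wild type. It measured 10.05, 10.42 and 10.09 in Ednrb null and 10.40, 10.53 and 10.58 in Ednrb NCC null. The Hes6 groups overlapped, with differences of -0.25 (adjusted p = 0.354) and 0.07 (adjusted p = 0.856) from wild type and -0.32 between the mutants (adjusted p = 0.223). Hey1, a target in endothelium and mesenchyme, measured 8.40, 8.54 and 8.59 in wild type, 8.43, 8.38 and 8.62 in Ednrb null, and 8.53, 8.20 and 8.48 in Ednrb NCC null. Its differences were -0.03 (interval -0.28 to 0.21) and -0.11 (interval -0.35 to 0.13), so a fall of Hey1 as large as that of Notch1 in Ednrb null lies outside both intervals.

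**Figure D3:**
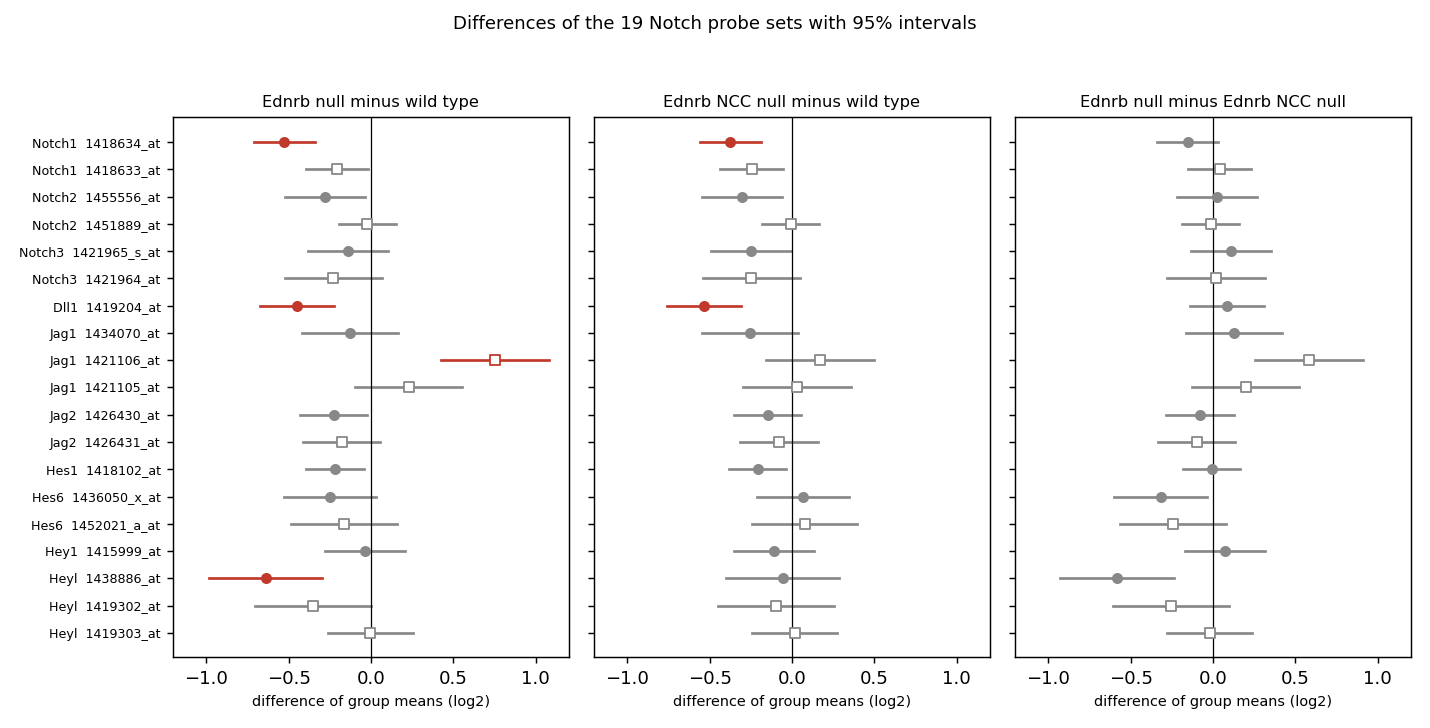
Differences of group means on the log2 scale for the 19 probe sets, in the 3 comparisons; lines are 95% intervals, filled circles the brightest probe set of a gene, open squares the others, and red marks an adjusted p under 0.05. Red points number 4 in Ednrb null against wild type, 2 for the same comparison of Ednrb NCC null, and 0 for the comparison of mutants.

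The members were also set against each other over the 9 arrays, as a description, since the arrays share the group differences. Notch2 correlated with Notch3 at 0.904 and with Jag1 at 0.857, and Notch3 with Jag1 at 0.890. In these 3 genes the Ednrb NCC null array 2 was the highest of its group and array 6 the lowest. Notch1 correlated with Hes1 at 0.844, and Jag2 with Hes1 at 0.841. Hes6 and Jag1 gave the lowest value, -0.377. The genes searched for likeness were those at or above the median gene in mean intensity, each read by its brightest probe set. Among 9096 such genes, those most like Notch1 over the arrays were Ptpn14 (Pearson r 0.9686), Hoxa3 (0.9596) and Itga4 (0.9568). Prrg1 was the most opposed to Notch1 (-0.9762). Those most like Dll1 were Zfp932 (0.9630), Slc7a6 (0.9556) and Ap4b1 (0.9502), and Ap5m1 was the most opposed (-0.9644). Among 9097 genes, those most like Heyl were Saraf (0.9534), Col6a3 (0.9488) and Clcn4 (0.9466), and Dock6 was the most opposed (-0.9423).

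The wider pathway was read through 63 measured genes of a list of 68, each by its brightest probe set. In Ednrb null against wild type 7 of the 63 fell and 0 rose, and 19 had an unadjusted p under 0.05, as had 18.5% of all genes. Over all genes read this way, 4.79% were called, 2.29% lower and 2.51% higher. In Ednrb NCC null 3 of 63 fell and 0 rose, and 12 had an unadjusted p under 0.05 (18.8% of all genes), where 3.9% of genes were called, 0.984% lower and 2.92% higher. Between the mutants, 4 were lower in Ednrb null and 1 was higher, with 12 at an unadjusted p under 0.05 (18.9% of all genes), where 5.29% of genes were called, 3.73% lower and 1.56% higher. The list's median differences were -0.03, -0.06 and -0.00.

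Of the 7 other ligands, Dll3 and Dner fell in Ednrb null. Dll3, a Delta protein of neural and endocrine precursors that acts on Notch within the cell, measured 8.73, 7.89 and 8.57 in wild type and 6.45, 7.26 and 6.28 in Ednrb null. The Ednrb NCC null arrays gave 8.10, 8.34 and 8.46, within the range of wild type. The Ednrb null arrays lay below all 6 others. Dll3 fell by 1.73 against wild type (3.33-fold, adjusted p = 0.00274) and differed by -1.64 from Ednrb NCC null (3.11-fold lower, adjusted p = 0.00586). Those Dll3 calls held without any single array, and were lost with the Actb covariate (-1.78, adjusted p = 0.0964, and -1.69, adjusted p = 0.151). Dner, a neuronal transmembrane protein with Delta-like repeats, fell by 0.65 in Ednrb null (adjusted p = 0.0286). The Dner call was lost without the Ednrb null arrays 29 or 37, or the wild type arrays 1B or 1D (adjusted p 0.0715 to 0.120), and when only the 2 groups were fitted (0.0798). Its values were dimmer than the median probe set. Dll4, the Delta ligand of endothelium, differed by 0.08 and -0.01 from wild type and did not pass.

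Of the genes that process ligands and receptors, Aph1b and Neurl1b passed on their brightest probe sets, and Neurl1a on a dimmer one. Aph1b, a subunit of gamma-secretase, measured 8.89, 8.82 and 8.86 in wild type, 8.14, 8.18 and 8.16 in Ednrb null, and 8.32, 7.95 and 8.21 in Ednrb NCC null. All 6 mutant arrays of Aph1b lay below wild type. Aph1b fell by 0.70 in each mutant (1.62-fold; adjusted p = 0.00191 for Ednrb null and 0.00333 for Ednrb NCC null), and these calls held without any single array. In Ednrb null the Aph1b call was lost with the Actb covariate (-0.48, adjusted p = 0.168). On the dimmer 1456500_at, Aph1b fell by 0.60 in Ednrb null (adjusted p = 0.00146) and by 0.52 in Ednrb NCC null (adjusted p = 0.00604). Those calls also held without any single array, and the first was lost in 1 other setting (adjusted p = 0.0944). Of the 7 other cleavage genes, 0 were called by limma in any comparison, with 1, 2 and 0 at an unadjusted p under 0.05, and the nearest was Psen2 (0.24, adjusted p = 0.111, in Ednrb null). Neurl1b, an E3 ligase that promotes ligand uptake, measured 8.45, 8.35 and 8.01 in Ednrb null and 9.26, 8.85 and 8.84 in Ednrb NCC null. Neurl1b was lower in Ednrb null than in Ednrb NCC null by 0.72 log2 (adjusted p = 0.0153), and the call was lost without the Ednrb null array 41 (0.0531). Against wild type, at 8.76, 8.85 and 8.76, the Neurl1b difference in Ednrb null was -0.52 (adjusted p = 0.0562). Neurl1a, a related ligase, did not pass on its brightest probe set (0.35 in Ednrb null, adjusted p = 0.276). On 1456854_at Neurl1a measured 7.09, 7.46 and 6.83 in wild type, 8.31, 7.90 and 8.19 in Ednrb null, and 7.56, 7.30 and 7.30 in Ednrb NCC null, the Ednrb null arrays lying above all 6 others. There Neurl1a rose by 1.01 in Ednrb null (2.01-fold, adjusted p = 0.00392) and differed by 0.75 from Ednrb NCC null (adjusted p = 0.0254). The first of these Neurl1a calls held without any single array and was lost with the Actb covariate (1.14, adjusted p = 0.0746). The second was lost without the Ednrb null arrays 29 or 41 or the Ednrb NCC null arrays 5 or 6 (adjusted p 0.0862 to 0.114). Mib1, another E3 ligase of ligands, differed by 0.40 between the mutants (adjusted p = 0.0547). The 5 glycosylation genes, among them the fringe genes Lfng, Mfng and Rfng, gave 0 calls by limma, with 0, 1 and 0 at an unadjusted p under 0.05 in the 3 comparisons.

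Of the genes that act on the receptor's intracellular domain, Numbl and Dtx4 fell. Numbl, a relative of the Notch inhibitor Numb, fell by 0.47 in Ednrb null (adjusted p = 0.0403). That call was lost on leaving out any array but the wild type array 1C (adjusted p 0.0576 to 0.152), when only the 2 groups were fitted (0.0986) and with array weights (0.0664). Dtx4, a deltex E3 ligase, measured 10.97, 11.03 and 11.04 in wild type and 10.61, 10.42 and 10.53 in Ednrb NCC null. Dtx4 fell by 0.49 there (1.41-fold, adjusted p = 0.0175), and the call was lost without the Ednrb NCC null arrays 5 or 6, or the wild type arrays 1B or 1C (adjusted p 0.0518 to 0.0715). Notch4, the endothelial receptor, differed by 0.32 in Ednrb NCC null (adjusted p = 0.139). Itch, an E3 ligase that acts on Notch, did not pass on its brightest probe set (0.11 in Ednrb null, adjusted p = 0.643). On 1459332_at, dimmer than the median probe set, Itch fell by 1.34 in Ednrb null (adjusted p = 0.000680) and by 1.61 in Ednrb NCC null (adjusted p = 0.000463). On the still dimmer 1440582_at, Itch fell by 0.70 in Ednrb null (adjusted p = 0.0149), a call lost without the Ednrb null arrays 29 or 37 or the wild type array 1B (adjusted p 0.0666 to 0.0709). The nuclear partners of the intracellular domain, Rbpj and 5 others measured, gave 0 calls by limma, with 0, 1 and 0 at an unadjusted p under 0.05. Rbpj differed by 0.14 in Ednrb null (adjusted p = 0.559) and by 0.01 in Ednrb NCC null.

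Of the 8 corepressors measured, Tle1 fell in Ednrb null and Tle4 was higher in Ednrb null than in Ednrb NCC null. Tle1, a Groucho corepressor that Hes proteins recruit, fell by 0.56 (adjusted p = 0.0414). The Tle1 call was lost without any of the 3 Ednrb null arrays, the Ednrb NCC null array 6 and the 3 wild type arrays (adjusted p 0.0542 to 0.150). With the Actb covariate the Tle1 difference was -0.15 (adjusted p = 0.828), and averaged over its probe sets -0.20 (adjusted p = 0.290). The other Tle1 probe set, 1434033_at, differed by 0.15 (adjusted p = 0.448). Tle4, of the same family, measured 11.53, 11.41 and 11.53 in Ednrb null and 11.07, 10.79 and 11.04 in Ednrb NCC null, a difference of 0.52 (adjusted p = 0.0302). That Tle4 call was lost without any of the 3 Ednrb null arrays and the Ednrb NCC null arrays 5 and 6 (adjusted p 0.0564 to 0.119). The 7 other targets, among them Hes5 and Hey2, gave 0 calls by limma, with 1, 0 and 0 at an unadjusted p under 0.05. Of these 7, only Id3 and Hes7 were brighter than the median probe set.

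Of the 7 proneural and endocrine genes measured, a class that Hes proteins are known to repress, Insm1 and Neurog3 fell in Ednrb null, and Insm1 also did so in Ednrb NCC null. Insm1, a zinc finger factor of neural and endocrine precursors, measured 6.58, 6.84 and 7.62 in wild type, 4.76, 5.14 and 5.12 in Ednrb null, and 5.58, 5.79 and 5.36 in Ednrb NCC null. All 6 mutant arrays lay below wild type. Insm1 fell by 2.01 in Ednrb null (4.02-fold, adjusted p = 0.000435) and by 1.44 in Ednrb NCC null (2.71-fold, adjusted p = 0.00671). These calls held without any single array and in the 8 other settings that kept the probe set, the Actb covariate among them. On the dimmer 1455865_at, Insm1 fell by 0.97 in Ednrb null (adjusted p = 0.00825) and by 0.76 in Ednrb NCC null (adjusted p = 0.0387). The second of these was lost on leaving out 8 of the 9 arrays in turn. Neurog3, which starts endocrine differentiation, measured 6.81, 6.17 and 6.77 in wild type, 5.64, 5.52 and 4.95 in Ednrb null, and 6.29, 7.18 and 7.39 in Ednrb NCC null. The Ednrb null arrays lay below all 6 others. Neurog3 fell by 1.21 in Ednrb null against wild type (adjusted p = 0.0328) and differed by -1.58 from Ednrb NCC null (2.99-fold lower, adjusted p = 0.0104). The first of those Neurog3 calls was lost without any of the 3 Ednrb null arrays, the Ednrb NCC null array 5 and the wild type arrays 1B and 1D (adjusted p 0.0521 to 0.135), and the second without the Ednrb NCC null array 5 (0.0557). Averaged over the Neurog3 probe sets, the difference from wild type was -0.52 (adjusted p = 0.118).

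Atoh1, which starts secretory differentiation in gut epithelium, measured 8.74, 7.81 and 8.89 in wild type, 7.31, 7.53 and 7.55 in Ednrb null, and 8.52, 9.18 and 9.25 in Ednrb NCC null. The Ednrb null arrays lay below all 6 others. Atoh1 was lower in Ednrb null than in Ednrb NCC null by 1.52 log2 (2.87-fold, adjusted p = 0.00882), a call that held without any single array. Against wild type the Atoh1 differences were -1.02 (adjusted p = 0.0525) and 0.50 (adjusted p = 0.376). The first of these Atoh1 differences passed without the wild type array 1C, the lowest of its group (-1.35, adjusted p = 0.00281), and without the Ednrb NCC null array 2 (0.0398). It also passed with centred arrays, without the 40% dimmest probe sets, with array weights and with 1 probe set per gene (adjusted p 0.0369 to 0.0488). Insm1 and Neurog3 were dimmer than the median probe set, where RMA understates differences.

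**Figure D4:**
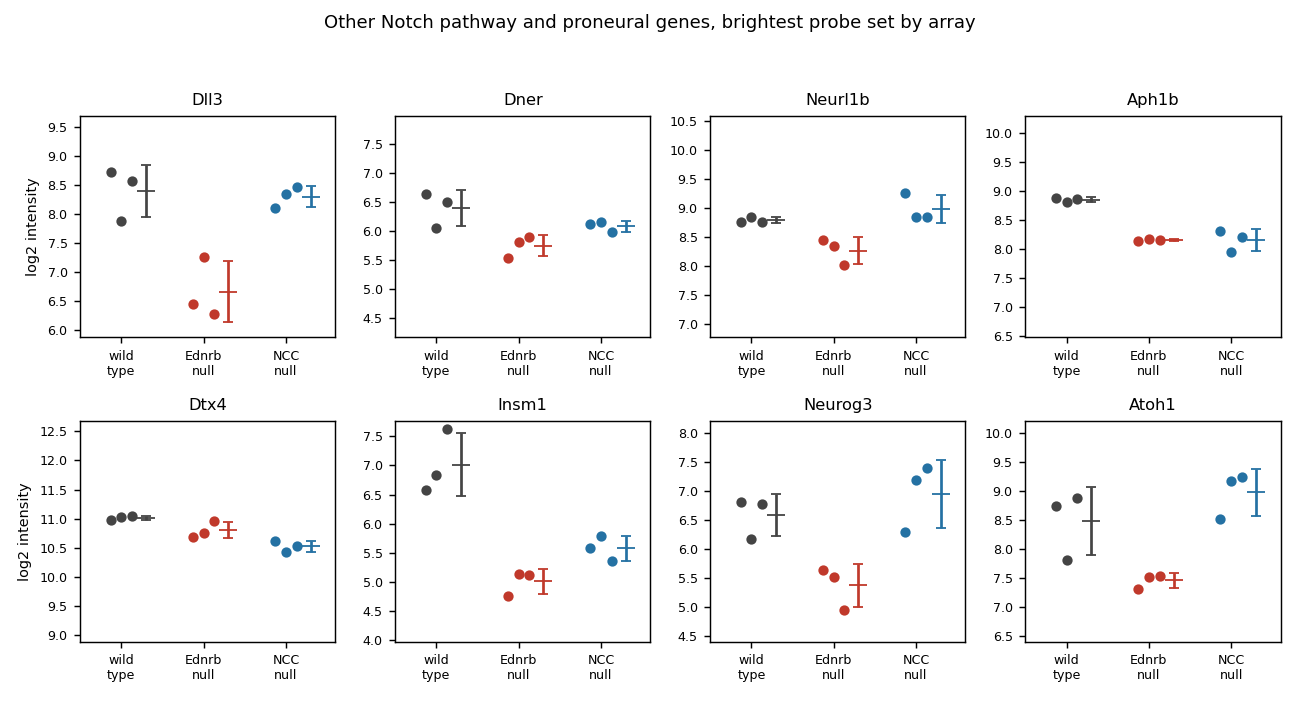
Log2 intensity of 8 other pathway and proneural genes, brightest probe set; points are arrays, bars the group mean and SD (n = 3), and NCC null stands for Ednrb NCC null. All panels span about the same number of log2 units. Aph1b and Insm1 are lower in both mutants, and Dll3, Neurog3 and Atoh1 are lowest on the 3 Ednrb null arrays.

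Markers of the cell types in the tissue were read beside these values, as the log2 of the summed intensity of a list. The enteric neural crest list (10 of 12 measured, Ednrb among them) summed to 12.70 to 13.03 in wild type, 11.76 to 11.99 in Ednrb null and 12.51 to 12.75 in Ednrb NCC null. In Ednrb null 7 of its 10 genes fell, Ednrb being 1 of the 7, and 3 of the 10 fell in Ednrb NCC null. The enteric neuron list summed to 11.16 to 11.80, 10.82 to 11.33 and 10.71 to 10.93, and 3 of 14 genes fell in each mutant. The list of glia and Schwann cell precursors summed to 11.05 to 11.59, 10.35 to 10.53 and 10.87 to 11.05. Of its 7 measured genes 4 fell in Ednrb null. As drawn up, it shares Sox10 and Foxd3 with the crest list. The lower crest and glia sums of Ednrb null stood beside its lower Notch1, Dll1, Heyl, Dll3, Dner and Insm1, and their part in those results was not tested. Mesothelium markers summed to 12.64 to 12.99, 12.84 to 13.23 and 13.37 to 13.53, highest in Ednrb NCC null. There 1 of 8 genes rose and 7 had an unadjusted p under 0.05. This list shares Krt19 with that of gut epithelium. In Ednrb NCC null the neuron sums lay below those of wild type, and crest and glia genes also fell. The part of mesothelium, crest, neurons and glia in the lower Notch1 and Dll1 of Ednrb NCC null was not tested. Nor was that of the epithelium, enteroendocrine and smooth muscle lists, whose Ednrb NCC null sums also lay outside the wild type range. The gut epithelium list summed to 15.02 to 15.12 in wild type, 14.74 to 15.18 in Ednrb null and 15.35 to 15.57 in Ednrb NCC null. Its Ednrb NCC null sums lay above those of wild type. There 2 of its 14 genes rose against wild type and 10 had an unadjusted p under 0.05. Of the 14 genes 8 were lower in Ednrb null than in Ednrb NCC null, as were Atoh1 and Neurog3. The part of the epithelium there was not tested. The enteroendocrine list, which holds Neurog3, summed to 11.61 to 12.03, 11.57 to 11.84 and 11.18 to 11.57. Smooth muscle markers summed to 15.35 to 15.52, 15.12 to 15.46 and 15.59 to 15.81. Of these 9 genes 0 were called in Ednrb NCC null against wild type, and 3 had an unadjusted p under 0.05.

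The vascular endothelium list summed to 12.29 to 12.66 in wild type, 12.47 to 12.59 in Ednrb null and 12.22 to 12.53 in Ednrb NCC null. Of its 11 genes 0 were called by limma in any comparison. In the 3 comparisons 1, 2 and 2 had an unadjusted p under 0.05, against 18.5%, 18.8% and 18.9% of all genes. The pericyte list, which holds Notch3, summed to 13.49 to 13.64, 13.07 to 13.40 and 13.29 to 13.67, and 1 of 6 genes fell in Ednrb null, as did Heyl. The skeletal muscle list summed to 10.13 to 11.64 in wild type, 10.08 to 10.37 in Ednrb null and 11.12 to 11.69 in Ednrb NCC null, with 0 of 11 genes called against wild type by limma and 1 in each mutant at an unadjusted p under 0.05. The part of pericytes and skeletal muscle in the fall of Heyl was not tested. The Actb 3' to 5' ratio was lowest in Ednrb null, and with it as a covariate the 4 calls among the Notch probe sets in Ednrb null were lost. Over all probe sets that fit called 539, where the fit without the covariate called 2265. The ratio and the Ednrb null genotype could not be told apart here, since all Ednrb null arrays had lower ratios than all others.

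**Figure D5:**
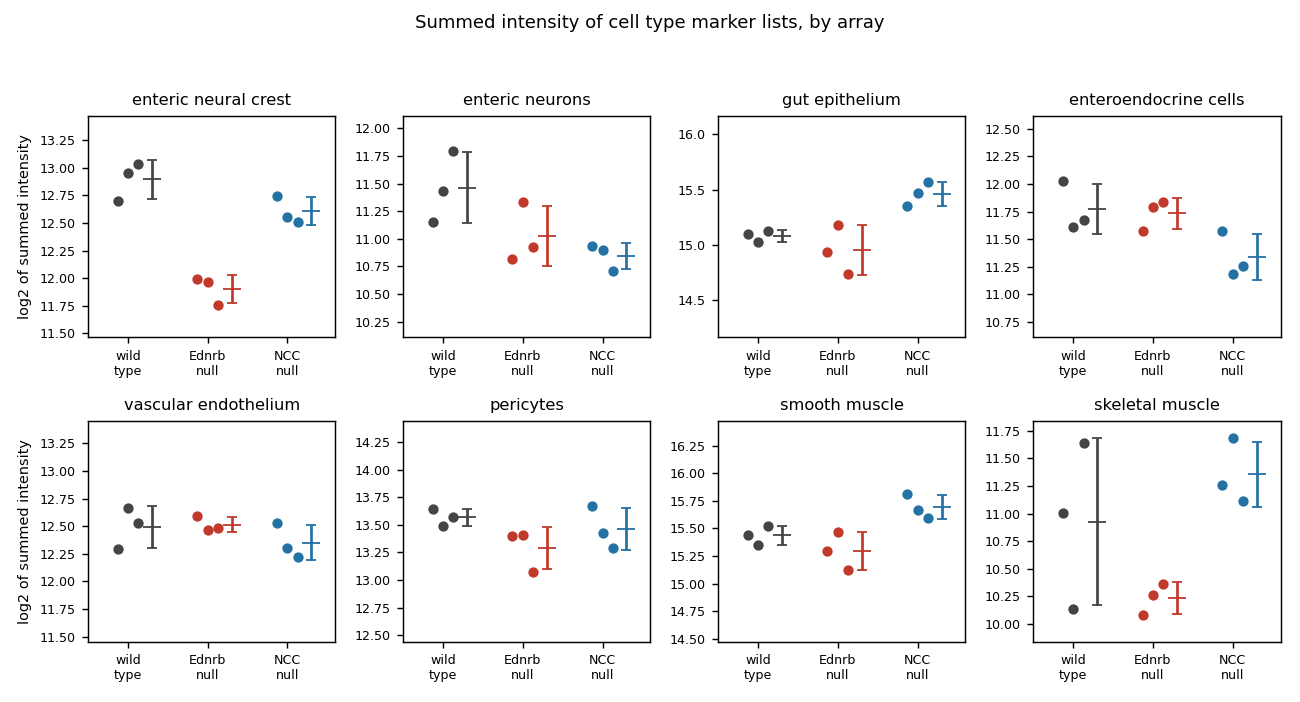
Log2 of the summed intensity of 8 cell type marker lists; points are arrays, bars the group mean and SD (n = 3), and NCC null stands for Ednrb NCC null. The enteric neural crest sum, which includes Ednrb itself, is lowest on the 3 Ednrb null arrays. The gut epithelium sum is highest on the 3 Ednrb NCC null arrays, and the vascular endothelium sums overlap.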

How the data were processed

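The authors deposited an intensity for every probe set on each array, processed by RMA according to the submitters' processing notes; its version is not given in the sources used here. The method removes background, equalises the arrays' distributions and summarises each probe set. The deposited intensities were on a linear scale and were converted here to log2 with no pseudocount. Of 45101 probe sets, 64 array controls were left out, and 45037 were fitted with limma 3.58.1 in R 4.3.3 (lmFit and eBayes, 1 mean per group, all 9 arrays), with 2-sided tests and Benjamini-Hochberg adjustment over all 45037. A probe set was called at an adjusted p under 0.05, and intervals are 95% from the same fit. Where a gene is read once, its brightest probe set naming that gene alone was used (18193 genes). Gene names came from the platform annotation, which named 1 gene for 34945 probe sets, several for 932 and none for 9160. The number of arrays limits the precision. RMA pulls dim differences toward 0.

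The named genes were Ednrb, all members, in each comparison the called genes of the other Notch pathway list (up to 12) and its 4 smallest p-values, and per called member the 3 most alike and 1 most opposed gene. Dll4, Mib1, Psen2, Rbpj, Hes5, Hey2, Hes7, Id3 and the fringe genes were named outside that rule, after their values were seen. So were called dimmer probe sets of Neurl1a, Aph1b, Itch, Tle4 and Insm1. They were named as examples of their groups, or because a dimmer probe set passed or a value came near the threshold. The members and lists were chosen with earlier results of these data known. Sequences were from RefSeq, GRCm38.p6. In simulated data over 45037 probe sets the fit recovered 47.8% (wild type with Ednrb null), 49.3% (wild type with Ednrb NCC null) and 62.7% (1 mutant with the other) of 1.5-fold changes, 89.6%, 76.1% and 89.6% of 2-fold changes and 100% of 4-fold changes, with 11, 9 and 7 false calls. Each simulation changed 66 or 67 probe sets at each size, with noise drawn independently for each probe set. Fewer were changed than were called in the data, so recovery in the data can differ. Alternatives covered normalization, dim probe sets, samples fitted, variance model, probe sets per gene, the Actb 3' to 5' ratio, thresholds and leaving out each array.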

Additional observations from a re-analysis of the deposited data

Results flagged for a closer look

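The differences of 6 genes from wild type were different between the mutants, by the limma contrast of Ednrb null against Ednrb NCC null. These were Dll3 (-1.64 log2), Atoh1 (-1.52), Neurog3 (-1.58), Neurl1b (-0.72) and Tle4 (0.52, and 0.35 on its dimmer probe set 1430384_at). Neurl1a also differed, on a dimmer probe set (0.75). By the brightest probe set, 5 of the 63 pathway genes were called in this contrast, where 5.29% of all genes were. The 3 arrays of each mutant did not overlap on any of these probe sets, nor on 21.3% of all probe sets. They were picked by a call in this same contrast, so their lack of overlap adds nothing to it. With the Actb 3' to 5' ratio as a covariate, none of these probe sets kept the call, but ratio and genotype could not be told apart. Between the mutants, the marker sums of gut epithelium (14.74 to 15.18 in Ednrb null, 15.35 to 15.57 in Ednrb NCC null) and of enteric neural crest (11.76 to 11.99 and 12.51 to 12.75) also did not overlap. The epithelium sums of Ednrb null overlapped those of wild type (15.02 to 15.12), and its crest sums lay below them (12.70 to 13.03). These 2 lists were not alone. The mutants also did not overlap for glia, smooth muscle, mesothelium, macrophages and skeletal muscle, all lower in Ednrb null. Sums of red blood cells, cartilage and, narrowly, enteroendocrine cells did not overlap either, and were higher in Ednrb null. The crest list holds Ednrb itself, the 1 of its 10 measured genes called between the mutants. The part of any of these lists in the differences of the 6 genes was not tested.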

How the results depend on the processing

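No paired analysis was possible because the groups share no replicate numbers in the labels. With the Actb 3' to 5' ratio as a covariate the calls among the Notch probe sets of Ednrb null against wild type went from 4 to 0, among the other pathway genes from 7 to 1, and over all probe sets from 2265 to 539. Between the mutants the pathway went from 5 to 0 and all probe sets from 1984 to 283. All Ednrb null arrays had lower ratios than all others, so these losses do not tell the ratio from the genotype. Averaging each gene's probe sets gave 2 members in Ednrb null, 5 pathway genes in Ednrb NCC null (3 before) and a member median of -0.13 there. It gave 982, 932 and 1216 calls over all genes in the 3 comparisons, and 1 brightest probe set per gene 917, 902 and 1187. Fitting only the 2 groups gave 1 member and 1042 probe sets in Ednrb NCC null (1611 before). A minimum log2 difference of 1 gave 0 members in both mutants, 3, 1 and 3 pathway genes, and 515, 319 and 390 probe sets. An adjusted p under 0.10 gave 2871 probe sets in Ednrb NCC null and, between the mutants, 2 members, 8 pathway genes and 3164 probe sets. Between the mutants, array weights gave 2 members, 8 pathway genes and 3709 probe sets, leaving out the dimmest 40% 2 members, and eBayes with trend and robust, or 1 probe set per gene, 1 member.

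Leaving out each array in turn gave 1 to 4 members, 3 to 9 pathway genes and 1330 to 2358 probe sets in Ednrb null, 0 to 3, 2 to 4 and 716 to 1971 in Ednrb NCC null (member median -0.30 to -0.17), and 0 to 1, 3 to 7 and 866 to 2061 between the mutants. Uncalled differences that changed sign were, in Ednrb null with the Actb covariate, Notch3 0.066, Jag1 0.055 and Hey1 0.11, and Jag1 0.29 with the mean of its probe sets. Between the mutants they were Notch2 -0.0097 with quantile normalization, Aph1b 0.014 with array weights and, with the Actb covariate, Dll1 -0.058, Jag2 0.035, Aph1b 0.24 and Tle1 0.15. Without single arrays they ran from -0.10 to 0.015 for Hey1 and -0.13 to 0.044 for Notch4 in Ednrb null; from -0.046 to 0.14 for Hes6, -0.24 to 0.034 for Heyl and -0.35 to 0.073 for Dll3 in Ednrb NCC null; and between the mutants from -0.043 to 0.15 for Notch2, -0.015 to 0.17 for Dll1, -0.041 to 0.031 for Hes1, -0.026 to 0.14 for Hey1 and -0.10 to 0.080 for Aph1b. The cause of these changes was not tested, except that fewer probe sets were tested where a gene was read once. Of the 90 single gene or probe set results, 33 lost or gained a call under some setting. With 3 arrays a group the fit recovered from 47.8% to 62.7% of simulated 1.5-fold changes. A miss at that size thus does not show that a gene did not change. The simulations held fewer changed probe sets than were called in the data, so these shares need not hold there.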

Other observations

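Tle4 was measured by probe sets that did not move together. On its brightest probe set Tle4 differed from wild type by 0.29 log2 in Ednrb null, and by -0.23 in the NCC null, while on 1430384_at it differed by -0.63 (limma adjusted p = 0.000814) and -0.99 (0.000109). Between the mutants both probe sets were higher in Ednrb null (0.52 and 0.35); the second call was lost without any single array of either mutant (adjusted p 0.0518 to 0.123). Neither transcript position nor cause was tested.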
